A study of Homo sapiens with 4 samples.

Results

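ADAR, IFIH1, MAVS and EIF2AK2, 4 of the 785 genes counted by NanoString, were measured in wild-type HAP1 lines and in lines with a MATR3 knockout. They were chosen by name for their roles in the sensing and editing of double-stranded RNA, and all 4 had a row in the table. HAP1 is an established human cell line with a near-haploid genome, derived from a chronic myeloid leukaemia line, and MATR3 encodes matrin 3, a nuclear protein that binds RNA and DNA. The 2 wild-type lines, 1 and 7, and the 2 knockout lines, 1 and 5, came from a commercial supplier, and each knockout line is a single clone. The labels tie the wild-type numbers to supplier batches as well as to clones, so whether these lines are separate clones or batches of 1 line is unclear. No stimulus such as double-stranded RNA or interferon is named in the labels for any line, and all were grown in the same medium. Colour-coded probes were hybridised to total RNA and counted without amplification. The labels do not say whether the lines were cultured or assayed together, so the p-values measure only the spread between these 4 samples. In limma the spread of each gene is also drawn toward that of genes at a similar level. Because RNA was taken from whole cultures, fewer expressing cells and less RNA per cell cannot be told apart.

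Double-stranded RNA in the cytoplasm is read by several proteins as a sign of virus infection. IFIH1 (MDA5) is a helicase that assembles along long double-stranded RNA and passes the signal to MAVS, an adaptor on the outer mitochondrial membrane, from which the kinase TBK1 and the factor IRF3 lead to type I interferon. EIF2AK2 (PKR) is a kinase that is switched on by double-stranded RNA and phosphorylates the translation factor eIF2alpha, which lowers protein synthesis. ADAR (ADAR1) deaminates adenosine to inosine within double-stranded RNA and so keeps the cell's own RNA from being read by IFIH1 and EIF2AK2. ADAR, IFIH1 and EIF2AK2 are themselves known as interferon-inducible genes in many cell types.

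Since interferon acts on its target genes through short promoter elements, the sequences before the start sites of the 4 genes are shown, to set the members that carry such an element beside those that do not. They come from RefSeq (GRCh38.p14), in which all 4 genes were matched, and run from 250 bases before the annotated start to 10 bases after it. Capitals mark every match to the core of the interferon-stimulated response element, on either strand: GAAA, any 2 bases, then GAAA.
IFIH1, chr2:162318675-162318934, minus strand: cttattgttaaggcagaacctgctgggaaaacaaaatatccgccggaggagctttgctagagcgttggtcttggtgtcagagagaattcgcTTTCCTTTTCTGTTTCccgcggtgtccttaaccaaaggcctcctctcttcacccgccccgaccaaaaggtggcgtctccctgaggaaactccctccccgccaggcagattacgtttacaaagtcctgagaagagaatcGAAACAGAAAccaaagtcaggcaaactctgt
EIF2AK2, chr2:37156971-37157230, minus strand: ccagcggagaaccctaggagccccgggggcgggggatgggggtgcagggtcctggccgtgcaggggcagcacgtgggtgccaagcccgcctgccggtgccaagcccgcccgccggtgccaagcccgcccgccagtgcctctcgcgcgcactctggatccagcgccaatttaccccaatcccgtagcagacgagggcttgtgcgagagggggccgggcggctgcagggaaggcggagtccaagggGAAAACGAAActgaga
MAVS, chr20:3846584-3846843, plus strand: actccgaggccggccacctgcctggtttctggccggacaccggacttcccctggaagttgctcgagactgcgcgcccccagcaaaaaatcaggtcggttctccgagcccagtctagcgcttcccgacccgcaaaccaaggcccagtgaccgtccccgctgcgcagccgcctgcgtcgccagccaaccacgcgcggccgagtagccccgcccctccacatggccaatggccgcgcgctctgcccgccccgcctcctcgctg
ADAR, upstream start, chr1:154627988-154628247, minus strand: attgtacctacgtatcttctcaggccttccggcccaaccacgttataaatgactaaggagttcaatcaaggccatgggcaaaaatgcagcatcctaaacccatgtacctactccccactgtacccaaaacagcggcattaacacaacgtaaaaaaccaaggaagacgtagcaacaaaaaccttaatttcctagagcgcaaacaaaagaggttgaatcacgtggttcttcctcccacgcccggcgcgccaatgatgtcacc
ADAR, downstream start, chr1:154608788-154609047, minus strand: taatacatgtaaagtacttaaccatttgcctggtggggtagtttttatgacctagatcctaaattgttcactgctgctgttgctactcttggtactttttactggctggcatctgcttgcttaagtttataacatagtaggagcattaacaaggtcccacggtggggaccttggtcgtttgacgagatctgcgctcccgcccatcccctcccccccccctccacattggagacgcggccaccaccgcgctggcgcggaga
The IFIH1 window held 3 matches. One lay on the gene's strand at -21 to -12, counted from the start site as +1, and the other pair lay on the opposite strand at -159 to -150 and -153 to -144, which overlap. The EIF2AK2 window held 1 match on the gene's strand, from -6 to 4, across the start site itself. The MAVS window and the 3 ADAR windows, of which 2 are printed because the other overlaps the upstream one, held none. Among 35116 promoter windows of 300 bases, 3.57% held this motif. TTCNNNGAA, the gamma-activated site, was in none of the members' windows and in 7.66% of all windows. TATAAA was found in the ADAR windows alone among the 4 genes, and in 11.5% of all windows. The GC share was 70.4% for MAVS and 71.2% for EIF2AK2 but 50.8% for IFIH1 and 47.3% to 51.5% for ADAR. A match describes the letters of these windows and not a bound site, and a window without one may have an element elsewhere.

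Values are probe counts that the authors had multiplied by 1 factor per sample, called normalised counts here. Recovered whole gene counts summed to 448610 to 571767 per sample, and the background limit, the mean plus 2 SD of the negative control probes on the same scale, lay between 19.5 and 25.7. Over all genes, the counts of lines of 1 genotype were not within sampling noise of each other: chi-square divided by its degrees of freedom was 4.02 for wild type and 3.05 for knockout. MATR3 is not analysed here, so the values do not check the knockout. Of 10 measured blood cell markers 2, CD14 and CD68, lay above the limit in all 4 samples, PTPRC was below it in each, and the markers' summed level was 167 and 204 in wild-type lines 1 and 7 against 144 and 127 in knockout lines 1 and 5. Their part in the results was not tested.

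The 4 RNA sensing and editing genes were all higher on average in the knockout, but by little. Of all 514 tested genes, 218 had a log2 fold change above 0. The knockout mean was higher by 5.64% for ADAR, 8.95% for MAVS, 17.9% for EIF2AK2 and 24.0% for IFIH1, and the SE of the log2 fold change exceeded its size for ADAR, MAVS and IFIH1. All 4 passed the filter of a mean of 20 and were tested with limma among 514 genes. 0 of the 4 passed an adjusted p of 0.05, where 8.17% of all tested genes did, and 1 of the 4, EIF2AK2, had an unadjusted p under 0.05, as did 19.8% of all. On the recovered counts edgeR called 0 of the 4, with an unadjusted p under 0.05 again for EIF2AK2 alone, and 7.98% of all genes, and DESeq2 called 0 of the 3 members to which it gave an adjusted p. Under every scaling tried the 4 log2 fold changes stayed above 0, but those of IFIH1 and MAVS fell below 0 when some single lines were left out.

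**Figure D1:**
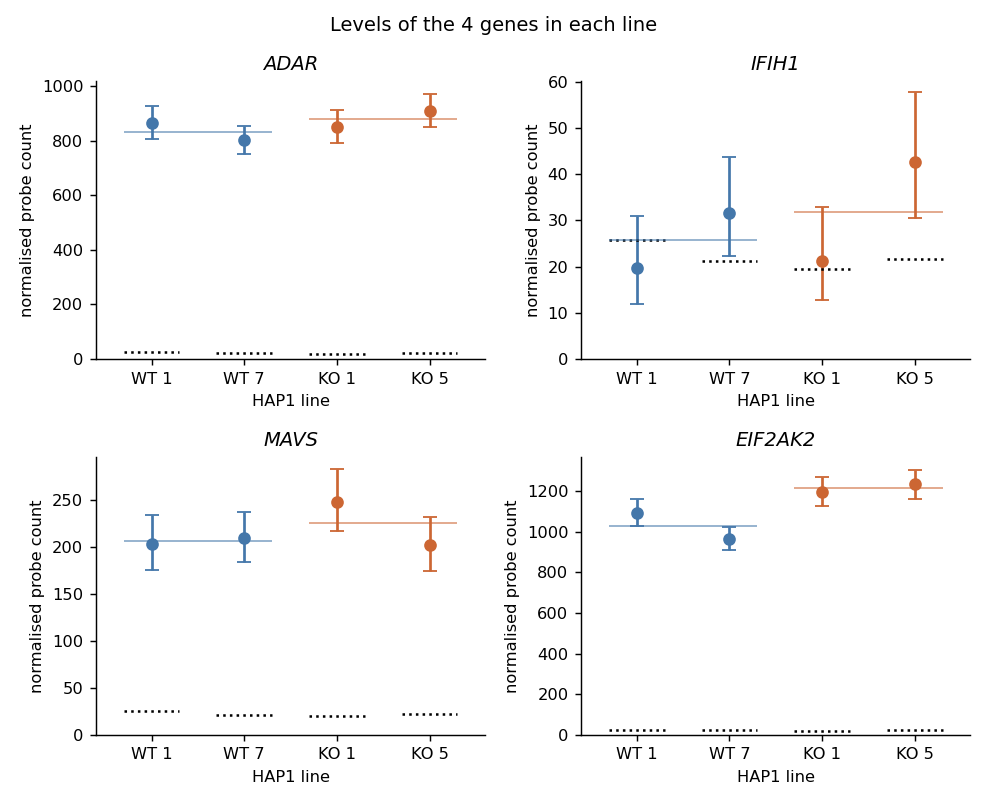
Normalised probe count (y axis, from 0) of each gene in the 2 wild-type (WT, blue) and 2 MATR3 knockout (KO, orange) lines; bars are 95% exact Poisson intervals that cover counting error only, coloured horizontal lines are group means and dotted lines are each sample's background limit. EIF2AK2 is higher in both knockout lines, at 1195 and 1233, than in both wild-type lines, at 1092 and 967, while the other genes overlap between groups and IFIH1 lies near the limit.

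EIF2AK2, the RNA-activated kinase, was the one member whose groups did not overlap. Wild-type line 1 was at 1092 normalised counts and wild-type line 7 at 967, and the knockout lines were at 1195 and 1233 for lines 1 and 5. Both knockout lines thus lay above both wild-type lines, as in 22.4% of all tested genes, and 53.1% had groups that did not overlap in either direction. These values rest on 1047 to 1185 counted probes per sample. The 95% exact Poisson interval, which covers counting error only, was 1027 to 1161 for wild-type line 1 and 1125 to 1269 for knockout line 1, which overlap. The intervals of the other 3 pairs of a wild-type and a knockout line did not overlap. The wild-type mean was 1029.6 ± 88.7 and the knockout mean 1214 ± 26.9 (SD, n = 2), a difference that did not pass the threshold. The log2 fold change came to 0.24 with an SE of 0.09 (limma adjusted p = 0.134), with an unadjusted 95% interval from 0.05 to 0.43, or 1.04-fold to 1.35-fold.

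EIF2AK2 did not pass in the reported setting, and whether it passed in alternatives depended on the scaling and on 1 line. With limma without trend its adjusted p was 0.388 and its unadjusted p 0.114, in a setting that called 4 of 514 genes. With samples scaled to equal totals its limma adjusted p was 0.257 and its unadjusted p 0.0668. TBP, one of 10 reference genes whose geometric mean was equal in the deposited values of all samples (within 1.04e-05 on the log2 scale), was at 598 and 561 in the wild-type lines 1 and 7, against 1020.4 and 926 in the knockout lines 1 and 5, or higher by 0.75 on the log2 scale with an SE of 0.09 (limma adjusted p = 0.000274). With samples scaled on the 9 other reference genes, EIF2AK2 had a log2 fold change of 0.32 and passed (limma adjusted p = 0.0286), in a setting that called 11.9% of genes. Without wild-type line 1 it had 0.33 and passed as well (limma adjusted p = 0.0366), in a setting that called 10.3%. Without wild-type line 7 the value was 0.15 (limma adjusted p = 0.579), which is over 1.5 times smaller.

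IFIH1, the helicase sensor, was counted close to background. Its level was 19.8 in wild-type line 1, below that sample's limit of 25.7, and 31.7 in wild-type line 7. In knockout lines 1 and 5 it was at 21.1 and 42.7, above limits of 19.5 and 21.7. The lower line of each group, line 1 in both, and the higher lines interleave, so the groups overlap. The brightest negative control probe, which has no target, reached 27.1 in wild-type line 1 and 18.9 in knockout line 1 on the same scale. The 2 lines of each genotype differed more than the genotypes did, by 0.65 on the log2 scale between wild-type lines and by 0.98 between knockout lines.

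For IFIH1 the log2 fold change came to 0.25 with an SE of 0.43 (limma adjusted p = 0.739), and its unadjusted 95% interval ran from -0.69 to 1.20, or 0.620-fold to 2.29-fold. A 2-fold increase lay within that interval, so none could be shown or set aside at 19 to 41 probe counts per sample. Its direction was not stable, since it turned to -0.071 without wild-type line 1 and to -0.24 without knockout line 5 (limma adjusted p = 0.974 and 0.855). Dim genes as a class were lower in the knockout on average. Of the 173 tested genes with a mean from 20 to 50, only 29 were higher, their median log2 fold change was -0.43, and 12 had a larger value than IFIH1. With cyclic loess, which removes such a trend with level, IFIH1 had a log2 fold change of 0.63 (limma adjusted p = 0.300). The mean negative control ranged from 8.56 to 8.87 over the wild-type and from 7.93 to 8.48 over the knockout lines, and its part in the trend was not tested.

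MAVS, the adaptor below IFIH1, was at 203 normalised counts in wild-type line 1 and 209.6 in wild-type line 7. It was at 248 in knockout line 1 and 202 in knockout line 5, so that 1 knockout line lay above and 1 below both wild-type lines. The means were 206.5 ± 4.37 and 225 ± 32.7 (SD, n = 2), and the log2 fold change came to 0.12 with an SE of 0.14 (limma adjusted p = 0.638). The unadjusted 95% interval from -0.20 to 0.43 corresponds to 0.869-fold to 1.35-fold. Knockout line 1 alone set the direction, as the log2 fold change was -0.033 without it and 0.26 without knockout line 5 (limma adjusted p = 0.944 and 0.593).

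ADAR, the editing enzyme, differed least. Its level was 865 in wild-type line 1 and 801 in wild-type line 7, against 851 in knockout line 1 and 908 in knockout line 5. Knockout line 1 lay between the wild-type lines, so the groups overlap. The means of 833 ± 45.3 and 879.9 ± 40.4 (SD, n = 2) differed by 0.08 on the log2 scale with an SE of 0.09 (limma adjusted p = 0.599). Its unadjusted 95% interval, from -0.11 to 0.27, spans 0.924-fold to 1.21-fold, which leaves out a 1.5-fold change in either direction. Of all tested genes 21.6% had a log2 fold change closer to 0. The probe's target within ADAR was not used here, so the interferon-inducible long form of the enzyme and the constitutive short form cannot be told apart.

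**Figure D2:**
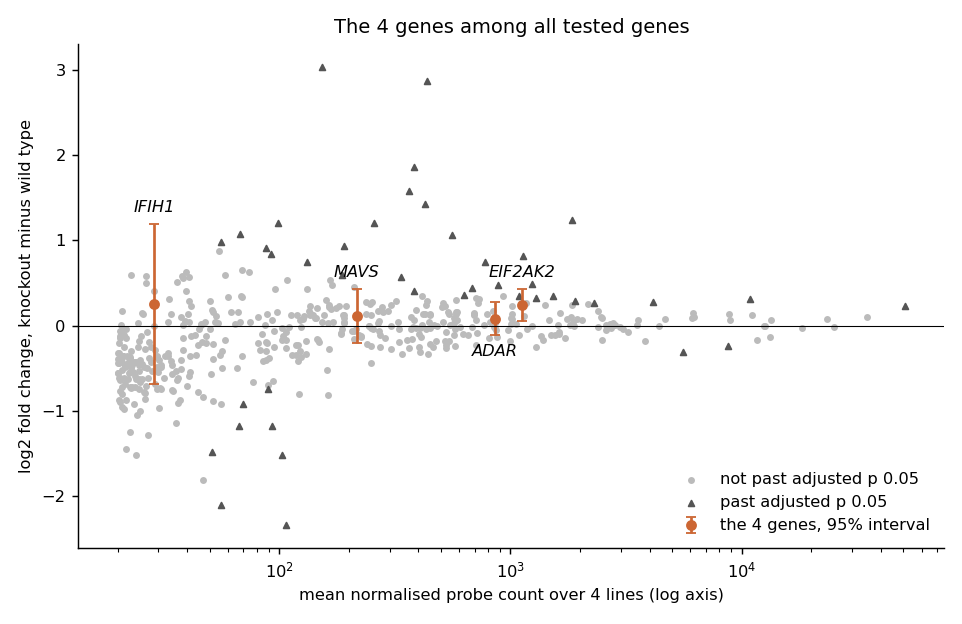
Log2 fold change (y axis, knockout minus wild type) against mean normalised probe count over 4 lines (x axis, log scale) for the 514 tested genes; triangles passed a limma adjusted p of 0.05, and the orange points are the 4 genes with unadjusted 95% intervals. The interval narrows from IFIH1, at -0.69 to 1.20, to EIF2AK2, at 0.05 to 0.43, and most genes with a mean below 50 lie under 0.

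Counts of 2 genes within 1 sample share its scaling factor, so the ratio of their whole counts does not depend on the scaling. Such ratios are compared here between lines only, as probes differ in how well they bind. Of the 6 pairs among the 4 genes, EIF2AK2 over ADAR was the 1 pair whose groups did not overlap, where 53% of all pairs of tested genes did not. Its log2 ratio was 0.34 and 0.27 for wild-type lines 1 and 7, against 0.49 and 0.44 for knockout lines 1 and 5, a mean difference of 0.16. For the other pairs the mean difference, knockout minus wild type, lay between -0.15 for MAVS over IFIH1 and 0.18 for IFIH1 over ADAR. No test was made on these ratios.

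Each gene's pattern over the 4 samples was set beside those of all tested genes, by the Euclidean distance between log2 values centred on their mean. This is a description over 4 samples. SP1 (distance 0.027) and STAT2 (0.040) were among the 3 genes closest to ADAR. EIF2AK2 was closest to NFATC1 (0.044), EIF2AK3 (0.051) and HLA-C (0.054), none of which passed the threshold. All were higher in both knockout lines than in both wild-type lines, which follows from picking them for likeness to EIF2AK2. MAVS was closest to JUNB (0.036), UBE2L6 (0.064) and GSTM4 (0.095). The nearest patterns to the noisier IFIH1 lay farther off, at 0.34 for FOXP3, 0.45 for TRIM25 and 0.57 for PARP9.

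The pathways around the 4 genes were described from 5 lists holding 63 measured genes, of which 54 were tested. Of these, 26 were higher and 28 lower in the knockout, with a median log2 fold change of -0.01 against -0.04 for all tested genes. In 3 the knockout was higher past the threshold, as in 6.23% of all tested genes. Over the lists 8 of 54 genes had an unadjusted limma p under 0.05, against 102 of 514 over all tested genes. OAS1, which passed the filter only through the wild type, is among the 8. edgeR called 3 of them, against 41 of all, and DESeq2 called 2, against 37 of all. The number lower and past the limma threshold was 0, where 1.95% of all tested genes were. The direction went with the level. Of the 18 list genes with a mean from 20 to 50, 13 were lower, at a median of -0.36, and of the 36 with a mean of 50 or more, 21 were higher, at a median of 0.06. All tested genes showed the same, with 144 of 173 lower in the first range, at a median of -0.43, and 189 of 341 higher in the second, at a median of 0.03. Among the 13 were OAS1, NLRP1, NOD2, NLRC5, IFNB1, IFNA2 and SOCS1, whose knockout means lay under 20. They passed the filter only through the wild type, so their direction is not read as a result. Some of all tested genes also passed through a single genotype.

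A list of double-stranded RNA sensors and their cofactors, which also took in other receptors (TLR7, TLR8 and NOD2), had 20 genes measured and 16 tested. None passed the threshold with limma, edgeR or DESeq2, though DESeq2 gave dim genes such as IFIH1, OAS1 and OAS2 no adjusted p. Over all tested genes limma called 8.17%. DDX58, OAS1 and EIF2AK2, or 3 of the 16, had an unadjusted limma p under 0.05, a share near the 19.8% of all tested genes. OAS1 is counted there only because its wild-type values carried it past the filter. Of the tested genes 7 were higher and 9 lower, and the median log2 fold change was -0.14. TLR7, TLR8 and NOD2, which are not double-stranded RNA sensors, were among the lower. The split and the median thus do not describe such sensors alone. NLRP1 and NOD2, also lower, had knockout means of 19.0 and 19.5 and passed the filter only through the wild type. OAS2, which makes the 2-5A messenger that activates RNase L, had the largest increase, from 31.3 (line 1) and 29.1 (line 7) in the wild type to 36.7 (line 1) and 60.4 (line 5) in the knockout (log2 fold change 0.63 ± 0.33, SE; limma adjusted p = 0.314). The value was 0.27 when knockout line 5 was left out and 0.98 when knockout line 1 was. OAS2 passed with cyclic loess (limma adjusted p = 0.0464), a setting that called 69 of 514 genes. OAS1, a related enzyme, had the lowest fitted value of the list, with 28.2 and 41.9 in wild type and 20.03 and 6.24 in knockout. It passed the filter only through the wild type, and 6.24, in knockout line 5, lay below that sample's limit of 21.7 and its mean negative control of 7.93, so no fold is given. Its limma adjusted p was 0.130 with all lines and 0.0454 with cyclic loess. Neither is read as a decrease, because the wild type alone carried OAS1 past the filter. DDX58 (RIG-I), the sister helicase of IFIH1, is named after its values were seen. Wild-type lines 1 and 7 had 111 and 115, and knockout lines 1 and 5 had 151 and 153, or higher by 0.43 on the log2 scale with an SE of 0.16 (limma adjusted p = 0.154). The lines of each genotype were close to each other in DDX58, and the groups did not overlap, as in 22.4% of all tested genes with the knockout higher. DHX58, TLR3, ZBP1 and OASL were under the filter and below the limit in all 4 samples.

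Among genes that carry the signal from MAVS, and from the Toll-like receptor adaptor TICAM1, 23 of 25 measured genes were tested. Of these 12 were higher and 11 lower, with a median log2 fold change of 0.05. NLRC5, among the 11, passed the filter only through the wild type. The 3 that rose past the threshold were TAB2, ISG15 and TBK1, where 6.23% of all tested genes did. No test of the list was made. TAB2, which links TRAF6 to the kinase MAP3K7, stood at 357 and 364 in wild type and at 693 and 816 in knockout (log2 fold change 1.06 ± 0.11, SE; limma adjusted p = 6.09e-05). Its partners MAP3K7 and TAB1 had log2 fold changes of 0.13 and 0.00 and did not pass (limma adjusted p = 0.478 and 0.989). ISG15, a ubiquitin-like protein that is attached to IFIH1 among other targets, had a log2 fold change of 1.21 (limma adjusted p = 0.00387). It stood at 58.4 and 59.0 in wild-type lines 1 and 7 and at 119 and 157 in knockout lines 1 and 5. With limma without trend neither call held, at an adjusted p of 0.0774 for TAB2 and 0.0950 for ISG15. That setting called only 4 of 514 tested genes. The kinase TBK1, with a log2 fold change of 0.41 (limma adjusted p = 0.0411), did not pass in 7 of 17 alternatives, with an adjusted p of 0.132 when wild-type line 7 was left out and of 0.222 when knockout line 5 was. TANK, a scaffold that binds TBK1, had the largest decrease, from 282 and 291 to 206 and 215 in the knockout (-0.44 ± 0.12, SE; limma adjusted p = 0.0522). It passed in 4 alternatives, with limma adjusted p down to 0.0163 with cyclic loess, which called 69 of 514 genes.

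None of the 10 tested genes of interferon and its receptor signalling passed with limma, edgeR or DESeq2, though DESeq2 gave dim genes such as IFNA2 no adjusted p. Over all tested genes limma called 8.17%. Of the 10, 0 had an unadjusted limma p under 0.05, where 19.8% of all did, and 4 were higher and 6 lower. With so few genes these counts do not set the list apart from all tested genes. The largest increase was that of the receptor chain IFNAR2 (log2 fold change 0.14; limma adjusted p = 0.478). IFNA2 had the lowest fitted value (adjusted p = 0.436), but it passed the filter only through the wild type and lay above the limit in 1 of the samples, so no fold is given. IFNB1 and SOCS1, also lower, had knockout means of 19.4 and 19.3 and passed the filter only through the wild type as well. STAT2 and IRF9, subunits of the factor that binds the response element, were at 0.05 and 0.13 (limma adjusted p = 0.884 and 0.831). Both overlapped between groups and were above the limit in all samples.

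Of the eIF2alpha kinases and the response below them, 4 genes were tested and 0 passed with limma, edgeR or DESeq2. Over all tested genes limma called 8.17%. An unadjusted limma p under 0.05 was found for 2, EIF2AK2 and ATF4, and for 19.8% of all tested genes. With limma without trend 0 of the 4 had one. EIF2AK2 had the largest increase and EIF2AK3 (PERK), the kinase of the endoplasmic reticulum, followed at 0.19 ± 0.15 (SE; limma adjusted p = 0.471). ATF4, the transcription factor whose translation rises when eIF2alpha is phosphorylated, had the largest decrease, from 13834 and 13781 to 12304 and 12932 (-0.13 ± 0.06, SE; adjusted p = 0.216). It passed with limma when samples were scaled to equal totals (adjusted p = 0.0120) and with cyclic loess (0.00884). Those settings called 39 of 516 and 69 of 514 genes. DDIT3 (CHOP), a target of ATF4, was at -0.08 (adjusted p = 0.757). Among editing and nucleic acid clearance genes, SAMHD1, which hydrolyses deoxynucleotides, had a log2 fold change of 0.14 (adjusted p = 0.428). APOBEC3G, a cytidine deaminase, was under the filter with 26.1 (line 1) and 18.8 (line 7) in the wild type and 5.56 (line 1) and 7.28 (line 5) in the knockout, of which only the value of wild-type line 1 lay above the limit.

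**Figure D3:**
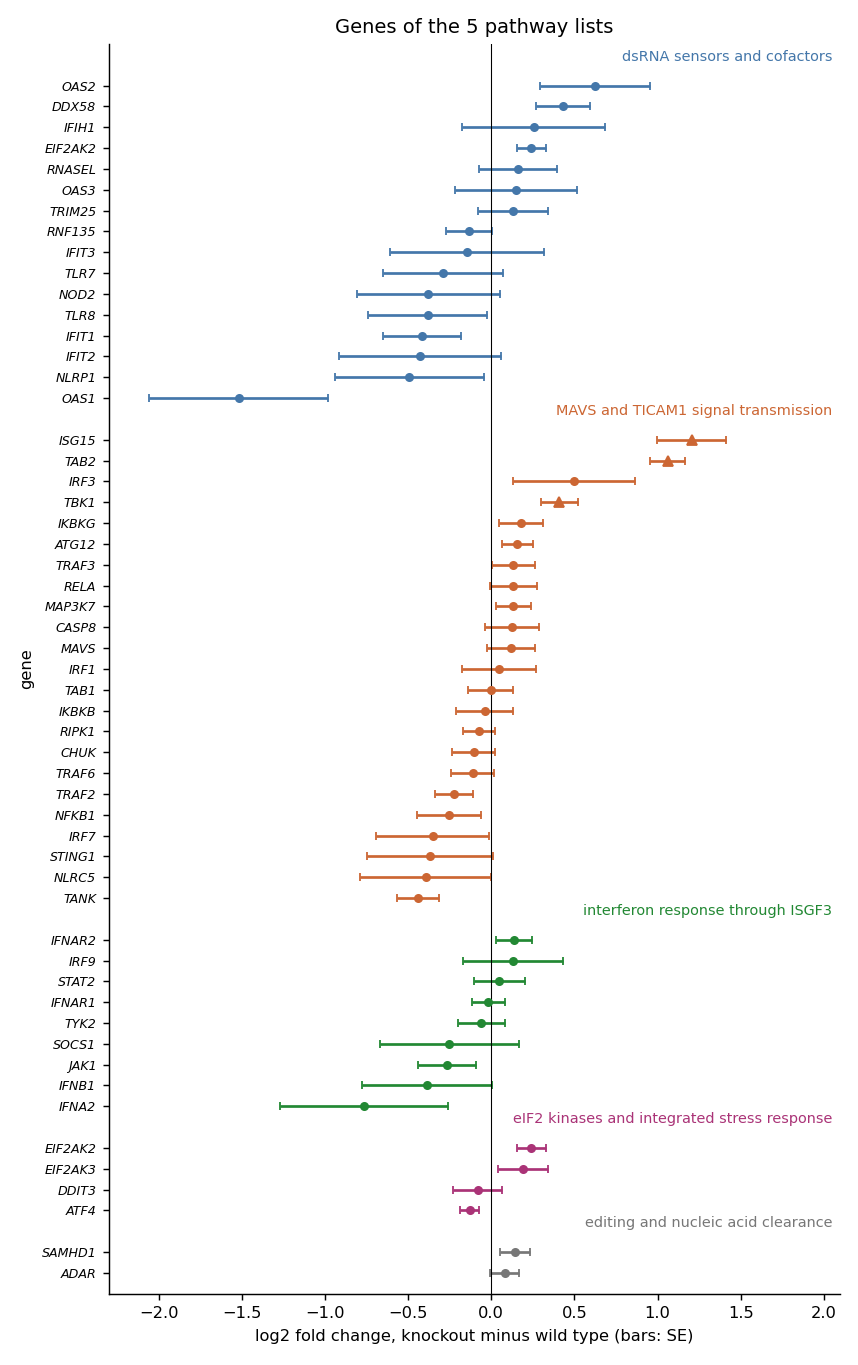
Log2 fold change (x axis, knockout minus wild type) with its SE for tested genes of 5 lists, 1 row per gene and list (EIF2AK2 is in 2 lists); triangles passed a limma adjusted p of 0.05. TAB2, ISG15 and TBK1 are the triangles, and OAS1, which passed the filter only through the wild type, lies lowest.

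**Figure D4:**
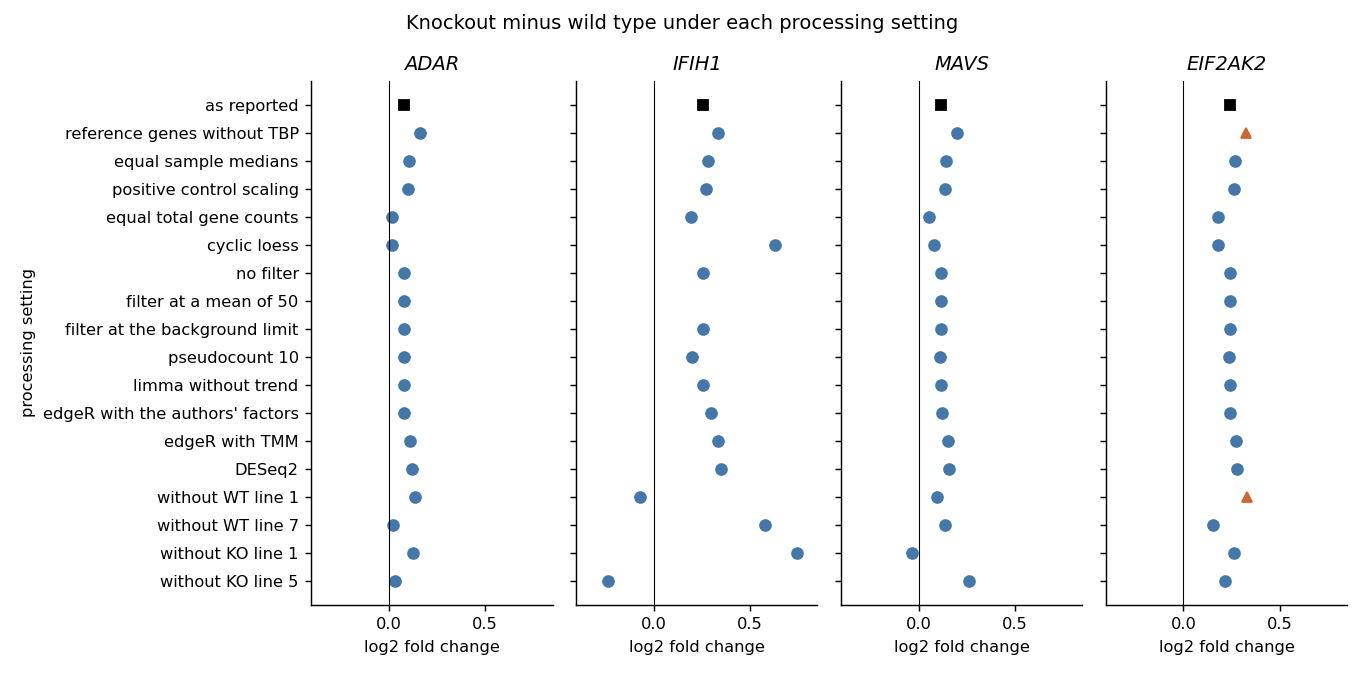
Log2 fold change (x axis, knockout minus wild type) of each gene under the reported setting (black square) and up to 17 alternatives (rows); orange triangles passed an adjusted p of 0.05. EIF2AK2 stays between 0.15 and 0.33 and passes in 2 settings, while IFIH1 ranges from -0.24 to 0.74 as single lines are left out.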

How the data were processed

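The deposited table held a normalised signal for 785 genes in 4 samples, with whole-number counts for 6 positive and 8 negative control probes; the authors had multiplied each sample's gene counts by 1 factor (1.04 and 0.856 for wild-type lines 1 and 7, 1.11 and 1.04 for knockout lines 1 and 5), as the values themselves showed. Whole counts were recovered by dividing by that factor (tolerance 0.006) for 100.0% of gene values above a floor of 1.00, at which 4 values of wild-type line 7 stood. The counts of that line, and the count tests, rest on a step read above this floor. The normalisation method and any background subtraction are not given in the sources used here, and R 4.1.1 is named in the submitters' processing notes.

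Genes with a mean of 20 or more were tested with limma 3.58.1 (lmFit, eBayes with trend; R 4.3.3) on log2(value + 1), which understates fold changes of low genes. All adjusted p-values are two-sided and Benjamini-Hochberg adjusted over all genes tested in that setting. Alternatives used edgeR 4.0.16 and DESeq2 1.42.0 on recovered counts. limma and edgeR were tested on simulated counts with a fixed spread and with changes larger than those of the 4 members. That test does not bear on changes as small as theirs. The members and lists were chosen with earlier results of these data known. Named genes are the 4 members, list genes past the threshold, each list's largest increase and decrease, and the 3 genes nearest to each member; others were chosen after their values were seen. Some genes under this rule are not reported here.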

Additional observations from a re-analysis of the deposited data

How the results depend on the processing

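No paired analysis was possible because 1 is the one line number found in both genotypes. The number of genes past the threshold, 42 (32 higher, 10 lower), was 69 with cyclic loess (40 and 29), 4 with limma without trend, and 29 to 77 without single lines, the highest without knockout line 1. The split was 53 and 8 on the reference genes without TBP and 24 and 15 with equal totals. The number of list genes past it, 3, was 7 with cyclic loess, 0 with limma without trend (8 at an unadjusted p under 0.05) and 2 to 5 without single lines, the highest without knockout line 1. The log2 fold change of EIF2AK2 was 0.32 on the reference genes without TBP, and 0.15 to 0.33 without single lines. That of IFIH1 was -0.24 to 0.74 without single lines, at -0.071 without wild-type line 1 and -0.24 without knockout line 5. That of MAVS was -0.033 to 0.26, at -0.033 without knockout line 1. That of ADAR kept its sign and its side of the threshold in all 17 alternatives, between 0.02 and 0.16. A line left alone in its genotype is assumed to vary like the others. The cause of these changes was not tested. With a filter at a mean of 50, IFIH1 was not tested, and DESeq2 gave it no adjusted p. Over all tested genes the median SE was 0.40 for means of 20 to 50 and 0.06 above 2000.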
